A study of Mus musculus with 24 samples.

Results

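Huntingtin, the product of Htt, works through the proteins it binds, and 9 genes were followed here: Htt itself and 8 genes that encode interaction partners of huntingtin. The members were taken by symbol, Hap1, Pcm1, Hip1, Hip1r, Optn, Zdhhc17, Prpf40b and Setd2 beside Htt, and all 9 were found in both expression tables, among 17501 genes of mouse embryonic stem cells (mESC) and 16024 genes of neural progenitor cells (NPC). RNA sequencing had measured 24 libraries, 12 from each cell type, with 2 libraries for each of 6 Htt genotypes: wild type (WT), Htt knockout (KO), and knock-in alleles with 20, 50, 92 or 111 CAG repeats, named Q20, Q50, Q92 and Q111. Per the labels the knock-in lines were heterozygous, so each also carried an Htt allele without the knocked-in repeat, and they came from an allelic series of 1 laboratory; how the KO allele was made is not given in the sources used here. The titles give the third length as 92 and the culture protocol gives 89 (92 was used). The mESC had grown with serum and leukemia inhibitory factor on gelatin over a layer of irradiated mouse fibroblasts, and the NPC had been derived from mESC in N2B27 medium and were kept in medium with FGF and EGF. The labels call the 2 libraries of a group biological samples without naming separate cultures or clones, so the p-values measure the spread between these libraries.

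Huntingtin is a large scaffold protein made of helical repeats, whose polyglutamine stretch is lengthened in Huntington's disease. It joins vesicles to the motors dynein and kinesin, takes part in clathrin-dependent membrane traffic and in autophagy, and binds splicing and transcription proteins in the nucleus. Among its partners, Hap1 (huntingtin-associated protein) is an adaptor between huntingtin and the motors, Pcm1 is a scaffold of the centriolar satellites that Hap1 binds, and Hip1 and Hip1r are paralogous adaptors that link clathrin coats to actin. Optn encodes optineurin, an autophagy receptor and adaptor of Rab8 and myosin VI. Zdhhc17 (also HIP14) is a palmitoyl acyltransferase that attaches palmitate to huntingtin. Prpf40b is a WW-domain splicing factor and Setd2 a histone H3 lysine 36 methyltransferase, both of which bind the region next to the polyglutamine stretch.

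The sequence that the knock-in alleles change lies at the start of the Htt coding sequence, and the reference mouse allele is shown because it gives the stretch that the repeat numbers of the genotypes refer to. In the GRCm38 reference, Htt lies at chr5:34761740-34912534 on the plus strand with 67 exons in its coding transcript. The first 120 coding bases, in the first exon, chr5:34761907-34762026 on the plus strand, read as follows, with the glutamine codons 18 to 24 in capitals.
Htt: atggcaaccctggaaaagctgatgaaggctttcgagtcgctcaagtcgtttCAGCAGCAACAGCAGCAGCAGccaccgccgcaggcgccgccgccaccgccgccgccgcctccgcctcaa
The stretch holds 7 glutamine codons, 6 of them CAG and 1 CAA, followed directly by 3 proline codons. The deposited values count reads per gene and do not tell the alleles apart. Zdhhc17 belongs to a family of acyltransferases named after a cysteine-rich motif, Asp-His-His-Cys, shown because it marks the family, and the motif's codons 464 to 467 are in capitals in the exon at chr10:110948204-110948233 on the minus strand.
Zdhhc17: gcgaaatttGATCACCATTGCccatgggtg

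The values were CPM (reads of a gene scaled to a common library total) as scaled by the authors, with 1 table per cell type, and 100% of them were whole multiples of 1 read, which returned 58546211 to 81502284 reads per library in mESC and 48525333 to 118038952 in NPC. The fewest reads behind any value of a member were 489, for Optn in NPC, so the replicate spread and not counting set the error. Genes with at least 1 CPM in at least 2 libraries were tested, 13916 in mESC and 13206 in NPC, and all 9 members passed this filter in both. Differences are between means of log2(CPM + 1), given with their standard error (SE), and a gene was called at an adjusted p under 0.05 (limma, Benjamini-Hochberg over all tested genes). The stem cell markers Pou5f1, Nanog and 6 others were all present in the mESC table, with summed levels of 2000 to 3790 CPM per library, and the 8 neural progenitor markers summed to 4010 to 9270 CPM in NPC. The NPC libraries of Q20 stood apart: they held the lowest progenitor sum, 4010 to 4140 CPM, and a stem cell marker sum of 106 to 108 CPM against 4.72 to 26.5 CPM in the other genotypes. The progenitor markers did not all go the same way. Nes, Fabp7 and Vim had their lowest means in Q20, whereas Hes5, Msi1 and Sox1 had their highest there (50.7, 34.3 and 12.4 CPM). Pax6 and Slc1a3 were lowest in other genotypes. In the NPC table Zfp42, Dppa5a and Utf1 were not listed. The high stem cell sum was mostly Pou5f1, which averaged 88.7 CPM in Q20 and at most 0.378 CPM elsewhere. Nanog averaged 13.3 CPM in Q20, its highest mean. Tdgf1 also had its highest mean in Q20, but only at 0.626 CPM. The remaining stem cell markers did not follow: Esrrb had its lowest mean in Q20 (0.736 CPM, against 0.788 to 5.12). Klf4 averaged 3.51 CPM in Q20, between 2.4 in Q50 and 15.8 in Q92.

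Htt itself was lowest in the KO libraries of NPC, and this was the check of the labels. In NPC, Htt stood at 100 and 94.9 CPM in KO, against 137 and 177 in WT, 157 and 155 in Q20, 182 and 173 in Q50, 184 and 168 in Q92, and 137 and 150 in Q111. Both KO libraries were below all 10 others, at 0.621 times the WT mean. The log2 difference between KO and WT was -0.67 ± 0.139 (SE, n = 2 and 2) with an adjusted p of 0.0673, so it did not pass, while the test for any difference among the 6 genotypes called Htt (adjusted p = 0.0111; 0.0504 without KO replicate 2). Without WT replicate 1 the KO difference was -0.85 (adjusted p = 0.0241) and without WT replicate 2 it was -0.49 (adjusted p = 0.0388), and 5 of 21 alternatives called it. Transcript remained in every KO library, and a gene-level value does not show whether it can be translated.

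In mESC the KO label was not matched by the Htt level in 1 library. Htt stood at 139 CPM in the library labelled KO replicate 1 and at 68.5 in KO replicate 2, against 124 and 113 in WT, 146 and 122 in Q20, 152 and 111 in Q50, 106 and 94.4 in Q92, and 99.3 and 91.5 in Q111. KO replicate 1 exceeded both WT libraries and KO replicate 2 was the lowest of the 12. The KO against WT difference of -0.28 ± 0.311 (adjusted p = 1) reversed to 0.22 without KO replicate 2 and was -0.78 without KO replicate 1. The KO comparisons in mESC below therefore speak of the libraries labelled KO. The KO effect on Htt did not differ detectably between the cell types (difference -0.39 ± 0.352, adjusted p = 0.999). Over the 8 knock-in mESC libraries the slope of Htt on CAG length, written as the change over the 91 repeats from 20 to 111, was -0.53 ± 0.184 with an unadjusted p of 0.0172 and an adjusted p of 1. The Q92 and Q111 libraries were all below those of Q20 and Q50 in mESC. In NPC the same slope was -0.08 ± 0.150 (adjusted p = 0.742).

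**Figure D1:**
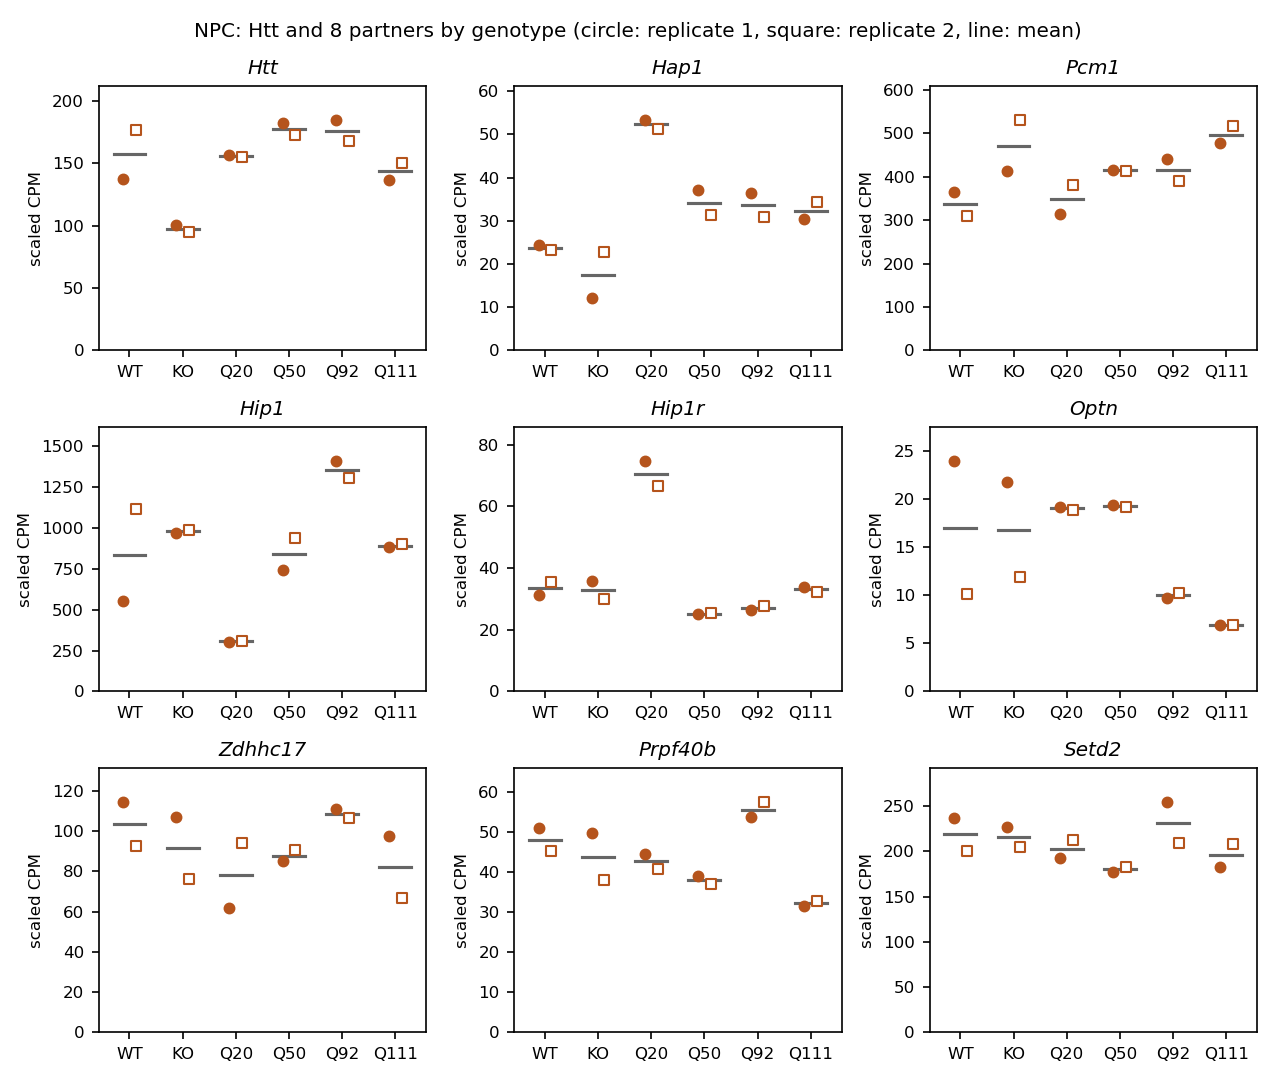
Scaled CPM of Htt and its 8 partners in the 12 NPC libraries by genotype (vertical axes start at 0, circles replicate 1, squares replicate 2, lines the mean of 2). Htt is lowest in KO, Hip1 is lowest and Hip1r and Hap1 are highest in Q20, and Optn is lowest in Q111.

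Relative to gene length the order of the members differed between the tables. Per kilobase of exon, Pcm1 had the highest median level in mESC, 55.6 CPM per kb, followed by Setd2 at 16.5, and Hip1 the lowest at 2.74. In NPC the order was led by Hip1 at 71.0 CPM per kb, with Pcm1 at 55.3 and Setd2 at 19.2, and Optn was lowest at 4.1. Htt was the third from the bottom in both tables, at 4.6 and 6.38 CPM per kb. This order depended on the length used. Per kilobase of the coding transcript alone, Htt stood at 8.5 and 11.8 CPM per kb, at place 6 of 9 in both tables, and Hip1r was lowest in both, at 4.33 and 4.73, while Pcm1 still led in mESC and Hip1 in NPC. The tables were scaled separately, so the level of a gene was not tested between them. Hip1 ranged from 21.4 to 72.7 CPM over the mESC libraries and from 304 to 1410 CPM over those of NPC, and Zdhhc17 from 25.5 to 45.4 and from 61.8 to 114 CPM. No other member had ranges in the tables that failed to overlap.

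The partners that bring huntingtin to motors and centriolar satellites were described first. Hap1, at chr11:100347327-100356128 on the minus strand, rose in Q20 over WT in NPC. Its values were 53.2 and 51.4 CPM in Q20, 24.3 and 23.3 in WT, 12.2 and 22.7 in KO, 37.1 and 31.3 in Q50, 36.4 and 30.9 in Q92, and 30.4 and 34.2 in Q111. Both Q20 libraries were above the rest, every knock-in library was above every WT and KO library, and the mean of Q20 was 2.2 times that of WT. The log2 difference between Q20 and WT was 1.10 ± 0.260 (adjusted p = 0.0246). It was not called without WT replicate 2 (adjusted p = 0.0645), without Q20 replicate 1 (0.129) or without Q20 replicate 2 (0.107). The longer alleles were lower than Q20 without passing the test, at -0.60 ± 0.260 in Q50 (adjusted p = 0.154), -0.63 in Q92 (0.111) and -0.68 in Q111 (0.0825). The KO difference from WT was -0.49 ± 0.260 (adjusted p = 0.496), with KO libraries that lay further apart than those of any other genotype.

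In mESC the libraries of Hap1 split by replicate number within every genotype. Replicate 1 and replicate 2 gave 22.4 and 70.1 CPM in WT, 29.7 and 75.8 in KO, 20.3 and 29.3 in Q20, 32.5 and 40.7 in Q50, 18.7 and 28.4 in Q92, and 20.9 and 33.3 in Q111. Replicate 2 was the higher library in 6 of 6 genotypes, with a median difference of -0.61 (replicate 1 minus replicate 2) on the log2 scale, as it was for 19.7% of all tested mESC genes. Htt, Hip1r and Prpf40b were higher in replicate 1 in 6 of 6 genotypes, by medians of 0.21, 0.79 and 0.56, as were 21.7% of the genes. In NPC the corresponding shares were 1.97% for replicate 1 and 2.85% for replicate 2, and none of the 9 members showed such a pattern. No label says what the number stands for. No genotype difference of Hap1 was called in mESC.

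Pcm1, at chr8:41239752-41332344 on the plus strand, had its lowest mean in WT in both cell types. In mESC it stood at 294 and 220 CPM in WT, 537 and 366 in the libraries labelled KO, 390 and 330 in Q20, 429 and 418 in Q50, 424 and 411 in Q92, and 423 and 449 in Q111. All 10 libraries of the other genotypes were above both WT libraries. KO against WT gave 0.80 ± 0.218, a mean 1.76 times that of WT, with an unadjusted p of 0.0053 and an adjusted p of 0.919 (0.151 with the replicate number as a block), so it did not pass. In NPC the values were 365 and 309 CPM in WT, 412 and 530 in KO, 315 and 382 in Q20, 416 and 413 in Q50, 441 and 390 in Q92, and 477 and 517 in Q111. The KO difference was 0.48 ± 0.163 (adjusted p = 0.24). Pcm1 rose in Q111 over Q20 in NPC, by 0.52 ± 0.163 with an adjusted p of 0.0457. This call sat near the threshold and was held by 7 of 22 alternatives. Its adjusted p was 0.0501 with no filter, 0.213 with scaling to library totals, 0.238 without Q20 replicate 1, 0.0699 without Q20 replicate 2, 0.123 without Q111 replicate 1 and 0.195 without Q111 replicate 2. It was 0.0694 without either Q50 library and 0.0677 without either Q92 library.

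**Figure D2:**
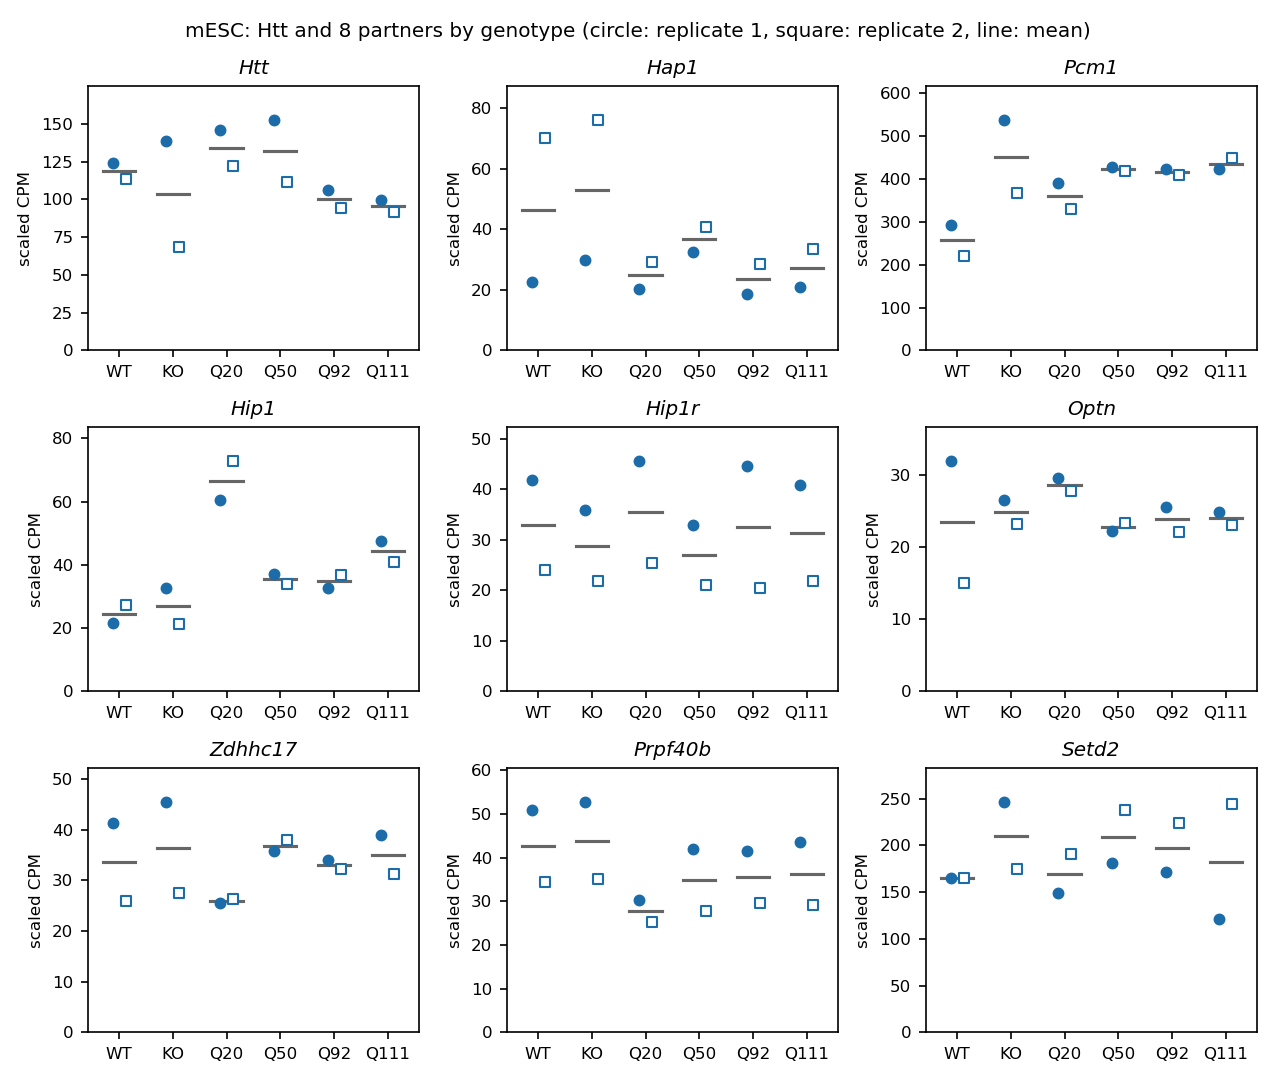
Scaled CPM of the 9 genes in the 12 mESC libraries by genotype (vertical axes start at 0, circles replicate 1, squares replicate 2, lines the mean of 2). The circle lies above the square in all 6 genotypes for Htt, Hip1r and Prpf40b and below it for Hap1, and Hip1 is highest in both Q20 libraries.

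Over the 5 tested pairs of genotypes in NPC, the clathrin adaptors Hip1 and Hip1r reached the largest log2 differences of the 8 partners. These were 2.14 for Hip1 in Q92 and -1.45 for Hip1r in Q50, both against Q20. Hip1 and Hip1r did not lead in every pair. Hap1 exceeded Hip1r in Q20 against WT, Optn exceeded Hip1r in Q111 against Q20, and Hap1 and Pcm1 led in KO against WT. Hip1 and Hip1r moved in opposite directions in Q20 NPC. They are paralogs: over 1004 aligned residues of the reference proteins, 53.6% were identical. Hip1 lies at chr5:135406531-135545120 on the minus strand and Hip1r at chr5:123973628-124005558 on the plus strand. In NPC Hip1 stood at 304 and 309 CPM in Q20, against 556 and 1120 in WT, 967 and 989 in KO, 741 and 939 in Q50, 1410 and 1310 in Q92, and 882 and 900 in Q111. Both Q20 libraries were below all others, and the Q92 libraries were above all others. Hip1r stood at 74.6 and 66.6 CPM in Q20, 31.4 and 35.6 in WT, 35.7 and 30.0 in KO, 25.1 and 25.3 in Q50, 26.5 and 27.8 in Q92, and 34.0 and 32.3 in Q111. Both Q20 libraries were above all others, which lay within 25.1 to 35.7 CPM.

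Hip1 fell in Q20 against WT in NPC by 1.36 on the log2 scale, with an SE of 0.277 and an adjusted p of 0.0128, and the WT mean was 2.73 times that of Q20. Hip1r rose by 1.05 ± 0.149 (adjusted p = 0.00197), to 2.11 times WT. Against Q20, Hip1 rose by 1.44 ± 0.277 in Q50 (adjusted p = 0.00831), by 2.14 ± 0.277 in Q92 (0.000883) and by 1.54 ± 0.277 in Q111 (0.00526). Hip1r fell against Q20 by 1.45 in Q50 (adjusted p = 0.000302), by 1.34 in Q92 (0.000369) and by 1.07 in Q111 (0.00146), each with an SE of 0.149. These 3 comparisons share the Q20 libraries. With WT in place of Q20 as the reference neither gene was called in any of the 3 lines: the differences of Hip1 were 0.08 in Q50 (adjusted p = 0.926), 0.78 in Q92 (0.119) and 0.18 in Q111 (0.679), and those of Hip1r were -0.39 (0.186), -0.29 (0.253) and -0.01 (0.958). The Hip1 call of Q20 against WT was lost without Q20 replicate 1 (adjusted p = 0.0782) or Q20 replicate 2 (0.0696), and that of Q50 against Q20 without Q20 replicate 1 (0.0542) or Q50 replicate 2 (0.0613). The WT pair of Hip1 was itself wide: KO against WT was -0.19 without WT replicate 1 (adjusted p = 0.611) and 0.81 without WT replicate 2 (0.0186).

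The Q20 libraries that set Hip1 and Hip1r apart were also those with the high stem cell marker sum, and their fibroblast marker sum of 241 to 299 CPM lay between 876 to 899 CPM in Q50 and 22.3 to 36.9 CPM in WT and KO, with 2.54 to 7.65 CPM in Q92 and Q111. The fibroblast sum of Q20 and Q50 was mostly Col3a1, at means of 217 and 619 CPM. Thy1 did not follow, at 4.29 CPM in Q20, 2.82 in Q50, 4.36 in WT and 10.9 in KO. The part of cell composition in these results was not tested. In bulk RNA, fewer cells of a type and less RNA per cell cannot be told apart. Of the Hip1r exons, 918 bases or 12.5% overlap exons of Vps37b on the opposite strand, and the use of strand in counting is not given in the sources used here. Vps37b stood at 53.8 and 28.1 CPM in the Q20 NPC libraries and at 103 and 60.9 CPM in WT. The difference was -1.01 ± 0.347 (limma adjusted p = 0.0992). Against Q20, Vps37b differed by 0.44 in Q50, -0.19 in Q92 and 0.13 in Q111, none of them called. The part of this overlap in the Hip1r values was not tested.

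In mESC Hip1 was highest in Q20, the genotype in which it was lowest in NPC. It stood at 60.5 and 72.7 CPM in Q20, 21.8 and 27.2 in WT, 32.7 and 21.4 in the libraries labelled KO, 37.0 and 34.1 in Q50, 32.6 and 36.9 in Q92, and 47.7 and 41.0 in Q111. Both Q20 libraries were above all others, at 2.72 times the WT mean. The difference between Q20 and WT was 1.41 ± 0.254 with an adjusted p of 0.068. In the paired fit, with the replicate number as a block, it passed (adjusted p = 0.0141), and so did the test of any difference among the genotypes (0.0424, against 0.188 without the block). Against Q20, Hip1 was at -0.88 ± 0.254 in Q50 (unadjusted p = 0.0073), -0.92 in Q92 (0.00598) and -0.57 in Q111 (0.051), none of them called. The feeder fibroblast markers summed to 46.7 to 66.6 CPM in Q20 and to 41.8 to 62 CPM in the other knock-in lines. In WT and KO they summed to 8.19 to 14.4 CPM. Thy1 did not follow: its mean was highest in WT, at 10.5 CPM, with 5.99 in Q20 and 4.16 in KO. The part of these markers was not tested. Hip1r ranged from 20.5 to 45.5 CPM in mESC and its libraries split by replicate number, with all of replicate 1 at 32.9 CPM or more and all of replicate 2 at 25.4 CPM or less.

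**Figure D3:**
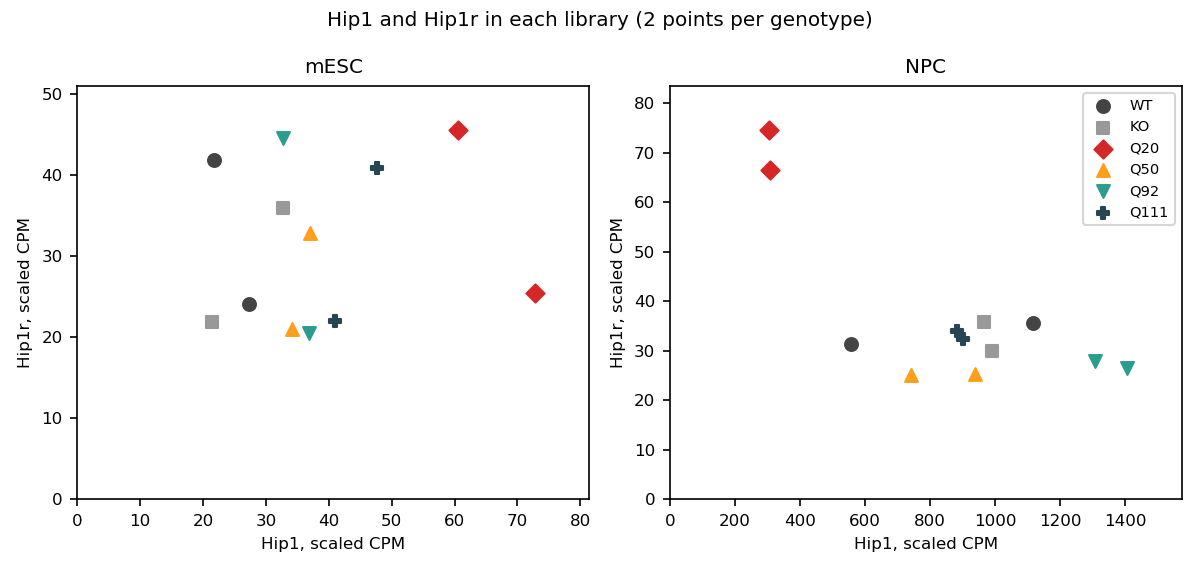
Hip1 (horizontal axis, scaled CPM) against Hip1r (vertical axis, scaled CPM) in each mESC and NPC library, 2 points per genotype. In NPC the Q20 libraries lie at low Hip1 (304 and 309) and high Hip1r (74.6 and 66.6), and in mESC the Q20 libraries lie at the highest Hip1 (60.5 and 72.7).

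Among the 8 partners, Optn, at chr2:5020642-5064051 on the minus strand, alone had a called negative slope on the repeat length in NPC. In the wider list of 49 genes below, 3 were also called lower on this slope. It stood at 19.2 and 18.9 CPM in Q20, 19.4 and 19.2 in Q50, 9.76 and 10.2 in Q92, and 6.88 and 6.93 in Q111, with 23.9 and 10.2 in WT and 21.7 and 11.9 in KO. The pairs of the knock-in lines were tight, those of Q20 and Q50 were close to each other, and Q111 was below all other libraries, whereas the WT and KO pairs were each spread widely. The slope over 91 repeats was -1.41 ± 0.241 (adjusted p = 0.00611), and it was called in 18 of 19 alternatives. The exception was the fit on 1 mean value per line (adjusted p = 0.334), in which 0 of 13206 genes passed. Length differs only between lines, and the other fits count the 2 libraries of a line as separate points, so their p-values do not measure the spread between lines. The slope of Hap1, whose means were highest in Q20 and lower at each longer length, was -0.59 ± 0.201 (adjusted p = 0.0673, called in 3 of 19 alternatives), and that of Hip1r was -0.92 ± 0.417 (adjusted p = 0.147, called in 1 of 19). For Optn in Q111 against Q20 the SE was 0.379, pooled over all genotypes including the wide WT and KO pairs. Optn fell there by 1.34 on the log2 scale (adjusted p = 0.032). That call was lost when any of the 8 knock-in libraries was left out, with adjusted p between 0.0523 and 0.129, and against WT the difference was -1.08 (0.0864). Q92 against Q20 gave -0.87 ± 0.379 (adjusted p = 0.125). The sum of the 6 astrocyte markers was 2030 to 2300 CPM in Q20, 1170 to 1460 in Q50, 346 to 350 in Q92 and 274 to 284 in Q111. The means of Aldoc and Aqp4 were lower at each longer length, whereas Gfap and S100b were higher in Q50 than in Q20 and Aldh1l1 and Slc1a2 were higher in Q111 (134 and 36.4 CPM) than in Q92 (3.92 and 13.9 CPM). Their part in the Optn result was not tested. An annotated antisense gene overlaps 73 bases of the Optn exons.

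In mESC Optn lay between 22.2 and 29.6 CPM in all knock-in libraries and its slope was -0.19 ± 0.203 (adjusted p = 1). The difference of the slopes between NPC and mESC was called for Optn, at -1.22 ± 0.299 (adjusted p = 0.0311), and for Hip1, at 2.17 ± 0.544 (adjusted p = 0.0342), among 4.86% of the 12321 genes tested in both tables. Each of these calls was made in 18 of 27 alternatives, not with 1 mean value per line, where 0 genes passed. With quantile normalization neither was made, although 3.74% of all genes passed. On the log2 of the length only 1 of them was made, beside 5.19% of all genes. That of Hip1 was lost without either Q20 library of either cell type, either Q92 library of NPC or Q92 replicate 1 of mESC (adjusted p 0.0502 to 0.115). That of Optn was lost without either Q111 library of either cell type, Q20 replicate 2 of mESC or Q92 replicate 1 of mESC (0.0516 to 0.0717). For Hip1 the NPC slope was 1.63 ± 0.432 (adjusted p = 0.0312) and the mESC slope -0.54 ± 0.310 (adjusted p = 1). The NPC means of Hip1 did not follow the order of the lengths, at 306, 840, 1360 and 891 CPM from Q20 to Q111. Without Q20 replicate 1 or 2 the NPC slope of Hip1 had an adjusted p of 0.131 or 0.125, without Q92 replicate 1 or 2 one of 0.055 or 0.0554, and with the replicate block one of 0.0536. Of the other 7 members none passed the test of the slope difference, and no member passed that of the KO effect, where 0.0406% of all genes did.

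Zdhhc17, at chr10:110941780-111010140 on the minus strand, was not called in any comparison. In NPC it stood at 114 and 92.7 CPM in WT, 107 and 76.1 in KO, 61.8 and 94.0 in Q20, 85.0 and 90.6 in Q50, 111 and 106 in Q92, and 97.7 and 66.8 in Q111, and all 5 neighbouring pairs in the order of the means overlapped. In mESC it ranged from 25.5 to 45.4 CPM, with both Q20 libraries at 26.4 or less. Of the nuclear partners, Setd2 was called in no comparison and Prpf40b in 1. Setd2, at chr9:110532597-110618633 on the plus strand, was the steadiest of the members in NPC, with 177 CPM as the lowest, 207 as the median and 254 as the highest value, and its spread over the 12 libraries (SD 0.156 on the log2 scale) lay at the 3rd percentile of all tested genes. In mESC it ranged from 121 to 246 CPM, the lowest in Q111 replicate 1 and the highest in KO replicate 1, and replicate 2 was higher in 5 of 6 genotypes.

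Prpf40b, at chr15:99295087-99317018 on the plus strand, was called in NPC by the test of any difference among genotypes (adjusted p = 0.0451) but in none of the 5 pairs. It stood at 51.0 and 45.2 CPM in WT, 49.7 and 38.1 in KO, 44.6 and 40.8 in Q20, 39.1 and 37.0 in Q50, 53.7 and 57.4 in Q92, and 31.6 and 32.8 in Q111. The Q92 libraries were the highest and the Q111 libraries the lowest. With WT as the reference the difference of Q111 was -0.56 and passed (adjusted p = 0.0472), while against Q20 it was -0.39 ± 0.160 (adjusted p = 0.0961). The call over genotypes was lost when any 1 library of Q20, Q50, Q92 or Q111 was left out, with adjusted p between 0.0867 and 0.156, and under the other 3 scalings, with 0.0543 to 0.058. In mESC Prpf40b was lowest in Q20, at 30.3 and 25.3 CPM against 50.8 and 34.5 in WT, a difference of -0.58 ± 0.345 (adjusted p = 0.561) that passed with the replicate block (adjusted p = 0.0374).

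The counts of members called are given here with the share of all tested genes that passed the same rule, and no share was tested against it. In mESC 0 of 9 members were called in each comparison: 0.0144% of all tested genes passed in KO against WT, 0.323% in Q20 against WT, 0.00719% each in Q50 and Q92 against Q20, 0% in Q111 against Q20 and on the slope, and 0.201% in the test over 6 genotypes. With the replicate block, 2 members and 10.6% of genes passed in Q20 against WT, and 1 member and 8.67% of genes in the test over 6 genotypes. At an unadjusted p under 0.05, without the block, 1 member was counted in KO against WT and 2 in Q20 against WT. Against Q20 the counts were 1 each in Q50 and Q92 and 0 in Q111. The slope had 1 and the test over 6 genotypes 2. Of the 13916 tested genes, 553, 1716, 887, 747, 374, 358 and 1379 had such a p, in the same order of comparisons. For the comparisons in which no gene passed, 374 genes (Q111 against Q20) and 358 genes (slope) had an unadjusted p under 0.05, and edgeR on the recovered reads called 0 genes in both. In NPC 0 members were called in KO against WT, with 0.878% of genes higher and 0.545% lower. Q20 against WT called 2 members higher and 1 lower, against 9.97% and 4.57% of genes. Q50 against Q20 called 1 higher and 1 lower, against 8.05% and 10.7%, Q92 against Q20 again 1 and 1, against 9.88% and 15.9%, and Q111 against Q20 called 2 and 2, against 12.2% and 16.1%. The slope called 1 member higher and 1 lower, against 12% and 10.1% of genes. The test over 6 genotypes called 5 of 9 members, Htt, Hap1, Hip1, Hip1r and Prpf40b, and 38% of all genes. That of Hap1 was lost without Q20 replicate 1 (adjusted p = 0.0708) or Q20 replicate 2 (0.0645). Over the 10 pairs of groups the median log2 difference of the 9 members ranged from -0.12 (Q111 against Q20 in NPC) to 0.24 (Q50 against Q20 in mESC), beside medians of all genes of 0.03 and 0.005.

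**Figure D4:**
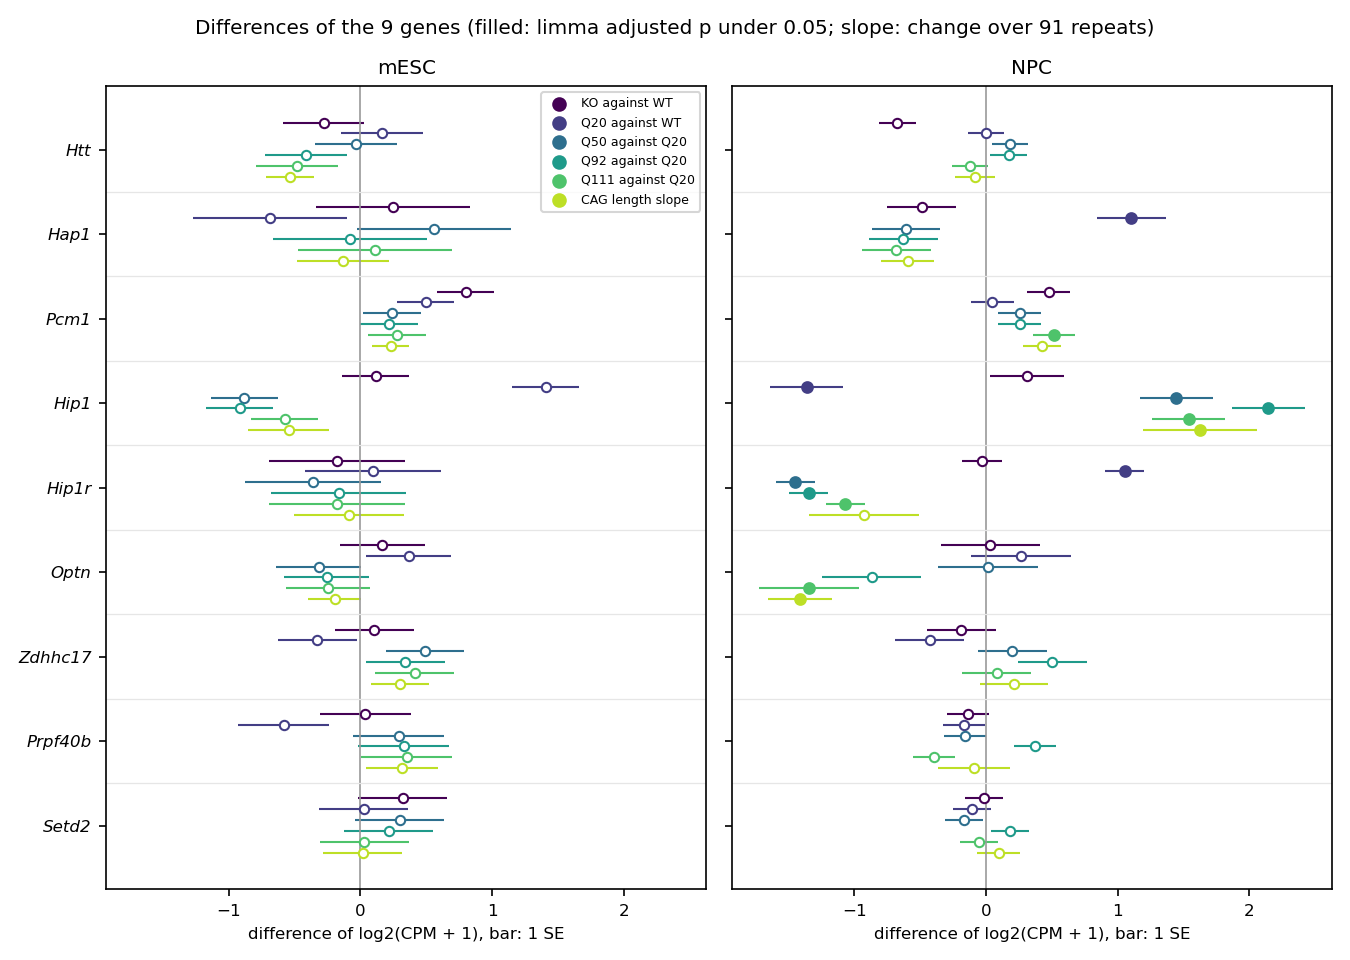
Differences of log2(CPM + 1) with 1 SE for the 9 genes in 5 pairs of genotypes and on the CAG length slope (change over 91 repeats), in mESC and NPC (filled points: limma adjusted p under 0.05). The fits shown have no replicate block. Filled points occur in NPC alone, at Hap1, Pcm1, Hip1, Hip1r and Optn, and Hip1 in Q20 against WT lies at 1.41 in mESC and at -1.36 in NPC. With the replicate block, Hip1 and Prpf40b passed in Q20 against WT in mESC, beside 10.6% of all genes.

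The levels of the partners were also set against the level of Htt over the 12 libraries of each cell type, where libraries of a genotype are not independent of each other. None of the 16 correlations had an adjusted permutation p under 0.05. The largest was that of Hap1 in NPC, with Pearson's r = 0.628 (permutation p = 0.0312, adjusted p = 0.5) and Spearman's rho = 0.538 (permutation p = 0.0749, adjusted p = 0.6). It was 0.0654 without the 2 libraries farthest from the median of Htt, both of them KO, so it rested on those libraries, and within replicate number it was 0.846 (replicate 1, n = 6) and 0.324 (replicate 2, n = 6). In mESC the r of Hap1 with Htt was -0.45 (permutation p = 0.143, adjusted p = 0.715; rho -0.252, permutation p = 0.433, adjusted p = 0.797), -0.124 without the 2 farthest libraries, 0.668 in replicate 1 and -0.418 in replicate 2. The genes whose pattern was most like that of Htt, by Pearson's r over the 12 libraries, were Zcchc12 (0.947), Higd2a (0.909) and Spryd4 (0.881) among 13205 NPC genes and Lrrc3 (0.884), Caskin1 (0.867) and Pgbd5 (0.864) among 13915 mESC genes. Hap1 ranked at place 140 in NPC, and the partner ranked highest in mESC was Hip1r, at place 1041 with r = 0.534.

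A wider list of 49 genes for other huntingtin-binding proteins and for proteins that act with the members was read in the same fits. In mESC 0 were called, or 3 each in Q20 against WT and in the test over 6 genotypes with the replicate block, where 10.6% and 8.67% of all genes passed. In NPC, KO against WT called 0 higher and 1 lower, beside 0.878% and 0.545% of all genes: Sh3gl3, an endophilin that binds huntingtin and bends membranes in endocytosis, fell by 1.24 on the log2 scale (SE 0.205, adjusted p = 0.0301), from 14.6 and 13.9 CPM in WT to 4.62 and 6.38 CPM in KO. The call was made in 9 of 21 alternatives and was lost without WT replicate 1 (adjusted p = 0.0778), KO replicate 1 (0.101) or any library of Q20, Q50, Q92 or Q111 (0.0571 to 0.0734). Q20 against WT called 4 of 49 higher and 6 lower, beside 9.97% and 4.57% of all genes, led by the neuronal kinesin heavy chain Kif5c (2.49), the membrane-cutting GTPase Dnm1 (1.83) and Sh3gl3 (1.72). Kif5c stood at 104 and 103 CPM in Q20 and between 10.8 and 36.1 CPM in the other NPC libraries. Among the 11 endocytosis genes, 3 were higher and 2 lower in Q20, and among the 11 genes of motors and adaptors 1 was higher and 3 lower, beside the same 9.97% and 4.57%. In the same Q20 libraries some markers of neurons were also high: Stmn2 averaged 116 CPM against at most 5.38 in the other genotypes, Tubb3 76.6 against at most 16, and Dcx 45.4 against at most 8.86. Map2, at 623 CPM, and Gap43, at 51.7 CPM, were instead lowest in Q20, and the sum of the 8 neuron markers was 837 to 1010 CPM there and 1020 to 1720 CPM in the other genotypes. The part of these markers in the differences of the list was not tested.

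Against Q20, the list had 5 higher and 5 lower in Q50 (Sh3gl3 -2.32, Kif5c -2.05 and Kif5a, another neuronal kinesin heavy chain, -1.95), 6 and 6 in Q92 (Sh3gl3 -2.98, Kif5a -2.70, Kif5c -2.23), and 7 and 6 in Q111 (Kif5a -2.89; Cbs, the cystathionine synthase that binds huntingtin, -2.41; Sh3gl3 -1.86). The shares of all genes higher and lower were 8.05% and 10.7% in Q50, 9.88% and 15.9% in Q92, and 12.2% and 16.1% in Q111. With WT as the reference the calls were 1 gene of 49 in Q50, 4 in Q92 and 8 in Q111, beside 6.62%, 8.66% and 16.6% of all genes. The slope called 7 higher and 3 lower, beside 12% and 10.1% of all genes: Kif5a fell by 2.74, Cbs by 2.49 and Dnm1 by 1.35 over 91 repeats. The slope of Dnm1 was called in 8 of 18 alternatives and those of Kif5a and Cbs in 18 of 19. With 1 mean value per line 0 genes passed on the slope. Kif5a stood at 31.5 and 27.6 CPM in Q20, 7.14 and 6.68 in Q50, 3.8 and 3.58 in Q92, and 2.82 and 3.44 in Q111, so the 4 pairs lay in the order of the lengths without overlap. On the same slope Prpf40b did not pass, at -0.09 ± 0.276 (adjusted p = 0.842). None of the 5 optineurin partners and autophagy receptors was called on the slope. The difference of slopes between NPC and mESC called 1 gene of the list, Kif5a, at -2.66 ± 0.512 (adjusted p = 0.00946). The median slope of the list in NPC was 0.181, against 0.041 over all genes.

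**Figure D5:**
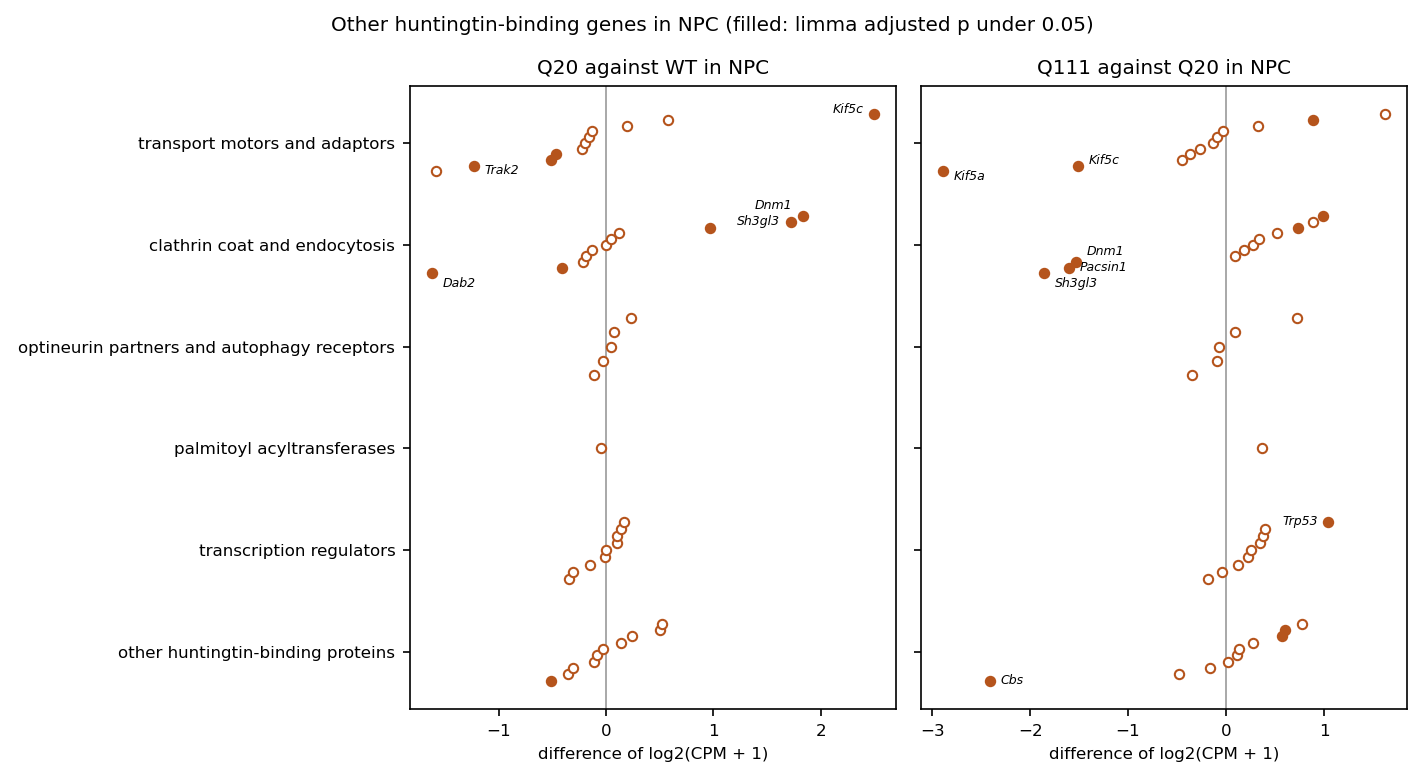
Differences of log2(CPM + 1) of other huntingtin-binding genes in NPC, for 6 groups of roles, for Q20 against WT and Q111 against Q20 (1 point per gene, filled: limma adjusted p under 0.05). Kif5c, Dnm1 and Sh3gl3 lie to the right in Q20 against WT (2.49, 1.83 and 1.72) and to the left in Q111 against Q20.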

How the data were processed

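Total RNA of 24 libraries was sequenced as paired-end reads of 75 bases, per the labels. Per the submitters' processing notes, CASAVA 1.8, STAR and the build GRCm38.p6 were used; the counting tool, its annotation, use of strand and gene filter are not given in the sources used here. The deposited values are a CPM signal that the authors scaled: all were whole multiples of 1 read (tolerance 0.01 reads), and the scaling matched the TMM factors of edgeR 4.0.16 recomputed from these reads.

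Values were tested as log2(CPM + 1) with limma 3.58.1 (variance trend, two-sided, R 4.3.3), in a model with 1 mean per genotype for each cell type; these folds understate changes of low genes. The filter was at least 1 CPM in at least 2 libraries. Slopes used the 8 knock-in libraries of a cell type and their differences the 16 of both, with the 2 libraries of a line as separate points. Levels were not tested between the tables, which were scaled separately. Alternatives covered the pseudocount, filter, scaling, reference group, length coding, replicate block, edgeR's quasi-likelihood test on the recovered reads and each library left out. Correlations used 100000 permutations.

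Positions, lengths and sequences come from GENCODE M21 on GRCm38, matched by Ensembl identifier. The members and lists were chosen with earlier results of these data known. All 9 members are named; of the other partners, the 3 with the largest difference in each comparison with calls are named, and Vps37b was named after its values were seen; some results are not reported here; the 3 genes most like Htt are named for each cell type. The replicate numbers, taken from the sample titles, paired the mESC libraries: all 15 correlations of replicate differences between genotypes were above 0.1 (0.25 to 0.547), so the blocked values stand beside mESC results where they change a call. In NPC 3 of 15 were (-0.0495 to 0.467), so the numbers were not taken as pairs. The highest, 0.467, was that of WT with KO, so the main fit of KO against WT in NPC left out a pairing seen there. The NPC libraries of a genotype lay further apart in WT and KO (chi-square per gene 594 and 618) than in the knock-in lines (112 to 131). Pairs of genotypes were tested with a spread per gene shared by all genotypes, so their SEs also hold that of WT and KO.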

Additional observations from a re-analysis of the deposited data

Results flagged for a closer look

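The CAG length slope differed between NPC and mESC for Hip1 by 2.17 and for Optn by -1.22 on the log2 scale over 91 repeats. Both were called by the test of the difference itself, which counted the 2 libraries of a line as separate points. With 1 mean value per line 0 genes passed this test. With quantile normalization neither gene was called, although 3.74% of all genes passed.

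Other differences ran in opposite directions in the cell types with every library of a group on 1 side. They were picked by this pattern from the pairs of genotypes of the members, and no share of all genes with it is given. These contrasts of effects were not tested individually. For Hip1, Q20 against WT was 1.41 in mESC and -1.36 in NPC, a gap of -2.77. The gaps of Hip1 between NPC and mESC were 2.33 in Q50, 3.06 in Q92 and 2.11 in Q111, each against Q20. Without the replicate block, these differences of Hip1 were called in NPC and not in mESC. For Hap1, Q50 against Q20 was 0.56 in mESC and -0.60 in NPC, a gap of -1.16. Neither difference was called, with an SE of 0.584 in mESC (limma adjusted p = 0.999) and 0.260 in NPC (0.154). For Htt, Q92 against Q20 was -0.41 in mESC and 0.17 in NPC, a gap of 0.58, and neither difference was called. The NPC value (limma adjusted p = 0.384) changed sign with scaling to library totals (-0.05) and with quantile normalization (-0.07).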

How the results depend on the processing

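None of the 15 called differences of members changed sign in their 323 alternatives (WT as the reference, another contrast, not counted), whereas 52 of the 111 that were not called did so in at least 1 alternative, 105 times in 2449, none of them called. Among these, Htt in the libraries labelled KO against WT in mESC was at 0.2236 without KO replicate 2 and -0.7816 without KO replicate 1, the difference of this KO effect between cell types was 0.11 without mESC KO replicate 1, and Hip1 in KO against WT in NPC was -0.19 without WT replicate 1. With the replicate block, which pairs libraries by number, mESC members called went from 0 to 2 in Q20 against WT (Hip1 and Prpf40b). They went from 0 to 1 in the test over 6 genotypes (Hip1), and in NPC the slope went from 2 to 1 (Optn). The shares of all genes in these blocked fits were 10.6%, 8.67% and 15.3%. KO against WT in NPC had 1 member called (Htt) with scaling to library totals, median-of-ratios scaling and quantile normalization. These stood beside 1.23%, 1.26% and 1.26% of all genes. Fits on only the libraries of both groups, with few residual degrees of freedom, called 0 members in Q20 against WT and 5 in Q92 against Q20 in NPC, beside 3.6% and 46.6% of all genes. With WT as the reference, 0, 0 and 2 members were called in Q50, Q92 and Q111 of NPC, beside 6.62%, 8.66% and 16.6% of all genes. The NPC slope called 1 member with quantile normalization, 4 on the log2 of the length and 0 with 1 mean value per line. The shares of all genes there were 17.8%, 22.3% and 0%. In the same settings the slope difference called 0, 1 and 0 members, beside 3.74%, 5.19% and 0% of all genes. Leaving out a library gave 1 to 3 members called in Q20 against WT, 1 to 3 in Q50 against Q20, 2 to 3 in Q92 against Q20, 2 to 5 in Q111 against Q20, 1 to 3 on the slope, 3 to 6 over 6 genotypes in NPC and 0 to 2 for the slope difference. For the fits that left out a library no share of all genes is given. Of the other alternatives for counts of members, 137 were within 1.5 times and 17 were not. Counts of 0 in both fits were taken as within 1.5 times, so the 137 include agreements of 0 with 0. The causes were not tested. The fit of the KO effect difference on only the KO and WT libraries and the alternatives for the other partners were added after seeing the data.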
